A study of Mus musculus with 9 samples.

Results

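The mitochondrial carriers are the SLC25 family of transport proteins, and their genes were taken as every row of the deposited liver RNA-seq table whose symbol reads Slc25a followed by a number. This gave 47 genes of the 30519 in the table, each represented by 1 transcript. The livers came from 9 mice aged 6 weeks: 4 knockouts of miR-122, labelled KO, and 5 littermates with the floxed allele, labelled WT. KO replicate 1 was female and the other 3 KO mice were male, while WT replicates 1 to 3 were female and the other 2 WT mice were male. Each liver was frozen and pulverised, and polyA RNA was sequenced from the part that was not crosslinked. Which animals share a litter and which Cre driver was used was not given in the sources used here. A p-value below sets a difference between groups against the spread between animals within them, over these 9 animals. Litter, and sex where it was not fitted, are not separated from that spread.

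Most mitochondrial carriers sit in the inner mitochondrial membrane, where each moves a set of metabolites between the matrix and the cytosol. They exchange ADP for ATP, bring in phosphate, export citrate for lipid synthesis, carry ornithine and aspartate for the urea cycle, and take in acylcarnitines for fatty acid oxidation, so a hepatocyte depends on many of them at the same time. A carrier is made in the cytosol, guided across the outer membrane by the TOM complex, chaperoned by small TIM proteins and inserted by the TIM22 complex. In hepatocytes no microRNA is more abundant than miR-122, and microRNAs lower the amount of transcripts whose 3′ UTR pairs with their seed.

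The deposited values are normalised transcript abundances with no unit of their own. In units of M (mega), they sum to between 0.711 and 0.869 in a KO library and to between 0.873 and 1.17 in a WT library. Reads on the listed transcripts, which are not the whole depth of a library, were estimated from the steps between low values. They numbered 15.3 to 22.1 M per KO library and 12.1 to 19.7 M per WT library. The table's column for WT replicate 3 is named male, whereas the label of that mouse says female. Its Ddx3y value, from a Y-linked gene, was 0.0422, against 13.2 or more in every library labelled male, and the label was kept. The hepatocyte marker Alb had the highest value of the marker genes in every group, with means of 45676 in KO and 62240 in WT. miR-122 itself was not analysed here. Genotypes were compared with limma on log2(value + 1) over the 10950 genes whose mean was at least 1, and called at a Benjamini-Hochberg adjusted p under 0.05. Fold values are ratios of group means. A log2 difference is on the log2(value + 1) scale, which understates the change of genes of low abundance.

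WT livers carried most of their carrier mRNA in a few genes. The highest WT mean belonged to Slc25a47, a carrier whose expression is concentrated in liver, at 496 ± 122.3 (SD, n = 5). Slc25a5, the widely expressed ADP/ATP translocase, followed at 379 ± 18.9 (SD, n = 5). Next came the ornithine carrier Slc25a15, the phosphate carrier Slc25a3, the glutathione carrier Slc25a39 and the aspartate/glutamate carrier Slc25a13, at means of 129, 126, 113 and 111, with SDs of 18.4, 22.0, 8.39 and 8.5. Those 4 neighbours overlapped one another across the WT livers and have no clear order. The carnitine/acylcarnitine carrier Slc25a20, at 77.2 ± 14.6, and the citrate carrier Slc25a1, at 61.4 ± 9.56 (SD, n = 5), completed the 8 highest. These 8 genes made up 75.7% ± 0.753 of the summed carrier abundance in WT and 70.0% ± 3.31 in KO (SD, n = 5 and 4). They were picked by their WT means, so the lower KO share is a description only.

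The summed abundance of the 47 genes was 1335, 1932, 1540 and 1639 in KO replicates 1 to 4 and 2021, 2129, 1943, 1976 and 1789 in WT replicates 1 to 5. KO replicate 2 lay among the WT livers and the other KO livers lay under them. As a share of the column total, carriers made up 0.211% ± 0.0323 in KO and 0.198% ± 0.033 in WT (SD), and the groups overlapped. Much of the difference in the sum was the 1 gene Slc25a47, which held 17.1% ± 5.72 of carrier abundance in KO and 24.9% ± 4.94 in WT. Without it the sums were 1327 ± 130 and 1476 ± 49.4 (SD).

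**Figure D1:**
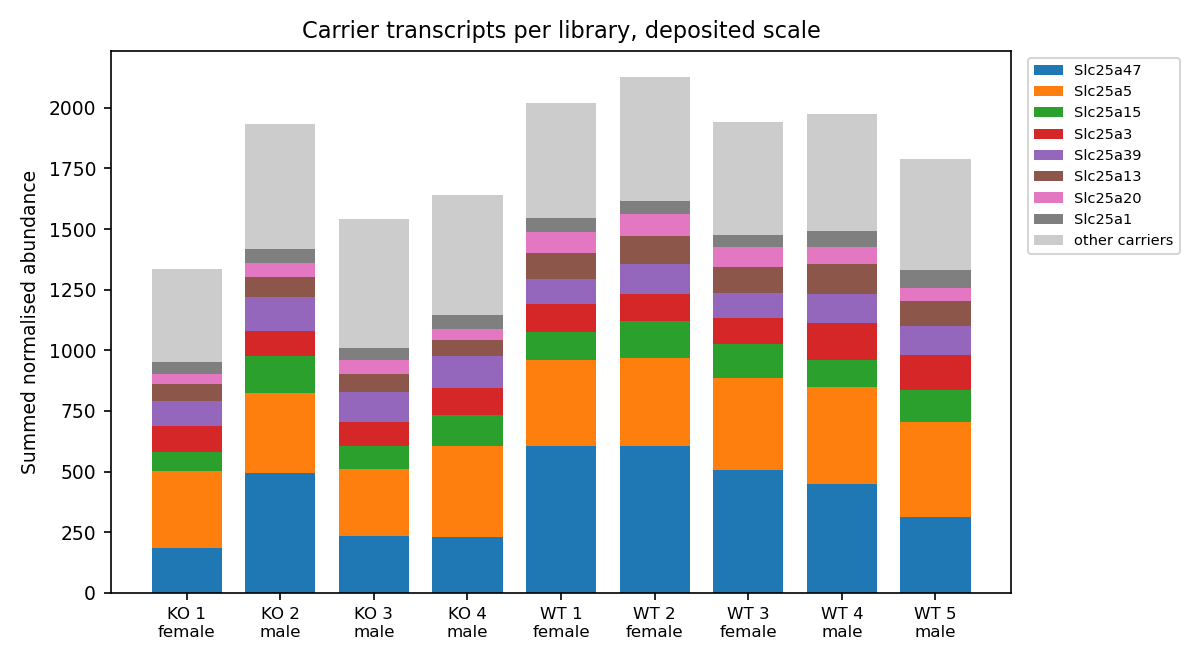
Summed normalised abundance of the carrier genes in each library (vertical axis, deposited scale, starting at 0), stacked by the 8 genes with the highest WT mean and all other carriers, with no error bars since each bar is 1 liver. The Slc25a47 segment is at 183, 233 and 228 in KO replicates 1, 3 and 4 and at 494 in KO replicate 2, and runs from 312 to 605 in WT.

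Of the 47 genes, 37 passed the abundance filter and were tested. Slc25a24 passed only through its KO livers, since its WT mean lay under 1. In KO 6 were higher and 8 lower, and 23 were not called. The called share was 37.8% of the tested carriers, against 35.9% of all tested genes, with 16.2% higher and 21.6% lower against 21.4% and 14.5%. With a ratio of means of at least 1.5 as well, 5 were higher and 6 lower (13.5% and 16.2%, against 15.1% and 6.80% of all tested genes). In 9 of the 37 genes the 4 KO and the 5 WT livers did not overlap, 4 with KO above and 5 with KO below. That is 24.3%, against 31.1% of all tested genes (19.0% above and 12.1% below). The share of carriers called was thus near that of all genes, and the share lower by at least 1.5-fold was above it, a difference with no test here. The median log2 difference was -0.06 for the carriers and 0.03 for all genes tested.

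How many carriers were higher or lower depended on how the libraries were scaled. Scaled to equal totals, 11 carriers were higher and 2 lower, 35.1% together against 47.7% of all genes (45.0% higher and 2.72% lower), and the medians became 0.28 for carriers and 0.36 for all genes. Trimmed-mean scaling, which moved the median of all genes to -0.06, left 5 carriers higher and 13 lower. The share of all genes called under that scaling is not given here. These 2 counts are therefore a description of the scaling and not a result about the carriers. The authors' deposited table has q-values for 43 carriers, of which 5 higher and 9 lower lay under 0.05 (32.6%, against 25.2% of all genes with a q). Of the 14 carriers called with limma, 12 were among them, all 12 with the same sign.

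**Figure D2:**
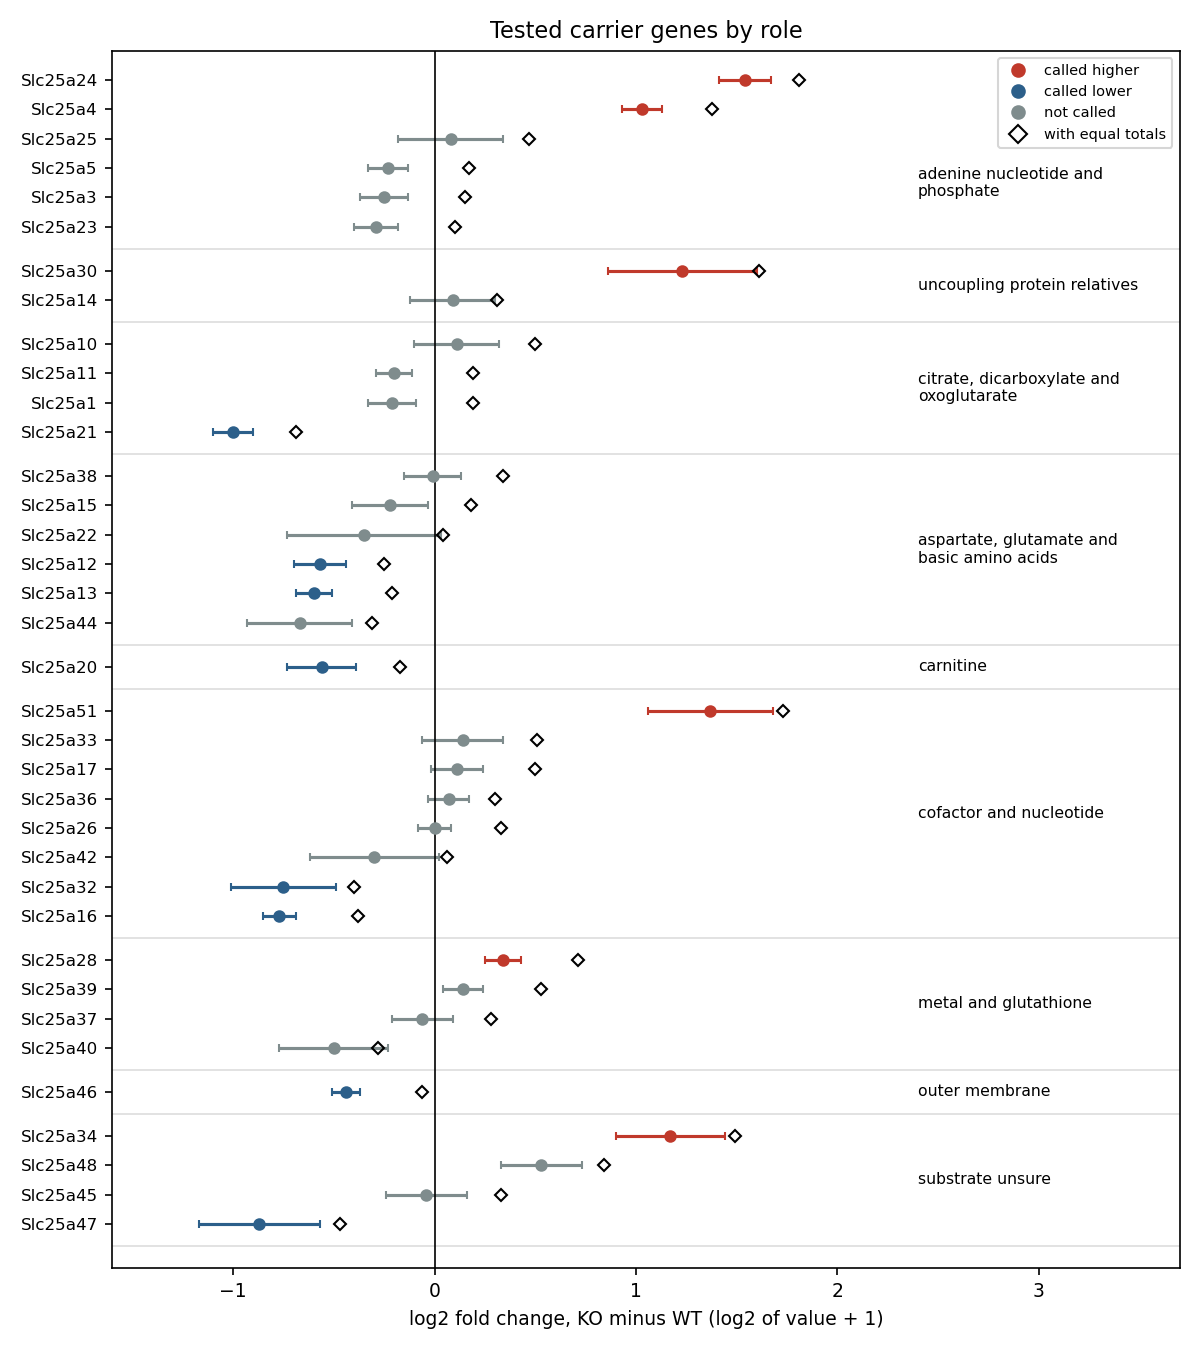
Log2 difference KO minus WT of tested carriers (horizontal axis, log2 of value + 1), grouped by what they carry. Filled points with bars are the estimate and its standard error, coloured by call, and open diamonds are the estimate after scaling every library to the same total. Every diamond lies to the right of its point, and of the genes called lower, Slc25a21 and Slc25a16 keep their call there.

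Among the adenine nucleotide and phosphate carriers, 6 of 8 genes were tested, 2 were higher and none was lower in KO with limma. Beside this count and those of the other roles below, 21.4% of all tested genes were higher and 14.5% lower. With so few genes in each role, the counts are a description only. Slc25a24, an ATP-Mg/phosphate carrier of the inner membrane that calcium activates, stood at 3.39, 4.17, 5.62 and 4.59 in KO and at 0.845, 0.788, 0.684, 0.889 and 1.06 in WT. Every KO liver was above every WT liver. The means of 4.44 ± 0.929 and 0.853 ± 0.139 (SD) differ 5.20-fold, with a log2 difference of 1.54 ± 0.13 (SE) and a limma adjusted p of 2.3e-05. Between 30.8 and 47.6 reads lay behind the WT values and between 258 and 303 behind the KO values. As its WT mean was under the filter, the gene was tested only because its KO livers were high.

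Slc25a4, the ADP/ATP translocase best known from heart and muscle, stood at 10.7, 11.5, 12.5 and 11.1 in KO and at 6.09, 5.00, 5.43, 4.75 and 4.25 in WT. The groups did not overlap. Its means were 11.4 ± 0.798 and 5.11 ± 0.698 (SD), 2.24-fold higher in KO (log2 difference 1.03 ± 0.10, limma adjusted p 5.5e-05). The sister translocase Slc25a5, far more abundant, stood at 320, 328, 276 and 377 in KO and at 356, 364, 380, 400 and 394 in WT and was not called (-0.23 ± 0.10, adjusted p 0.0951). It was called lower under trimmed-mean scaling (-0.32, adjusted p 0.0306) and without KO replicate 4 (-0.30, 0.0345), and with equal totals its estimate was 0.17. These paralogs are similar in sequence, so reads could be shared between them, and how the authors' counting split such reads was not given in the sources used here.

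A ratio of 2 genes within a library does not depend on how that library is scaled. The ratio of Slc25a5 to Slc25a4 was 30, 28.6, 22.0 and 33.8 in KO and 58.4, 72.7, 69.9, 84.3 and 92.7 in WT. KO livers thus kept Slc25a5 as the main translocase, at 28.6 ± 4.92 times Slc25a4, against 75.6 ± 13.3 times in WT (SD). For the ATP-Mg/phosphate carriers Slc25a23 and Slc25a24 the ratio was 10.7 ± 3.04 in KO and 66.3 ± 6.82 in WT. Neither ratio overlapped between the groups. Of 4 ratios computed, the other two did overlap, with Slc25a39 over Slc25a28 at 10.5 ± 0.828 in KO and 12.4 ± 1.12 in WT and Slc25a13 over Slc25a16 at 3.88 ± 0.384 and 3.41 ± 0.429. All were chosen after the values of their genes were known, so no test is given.

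**Figure D3:**
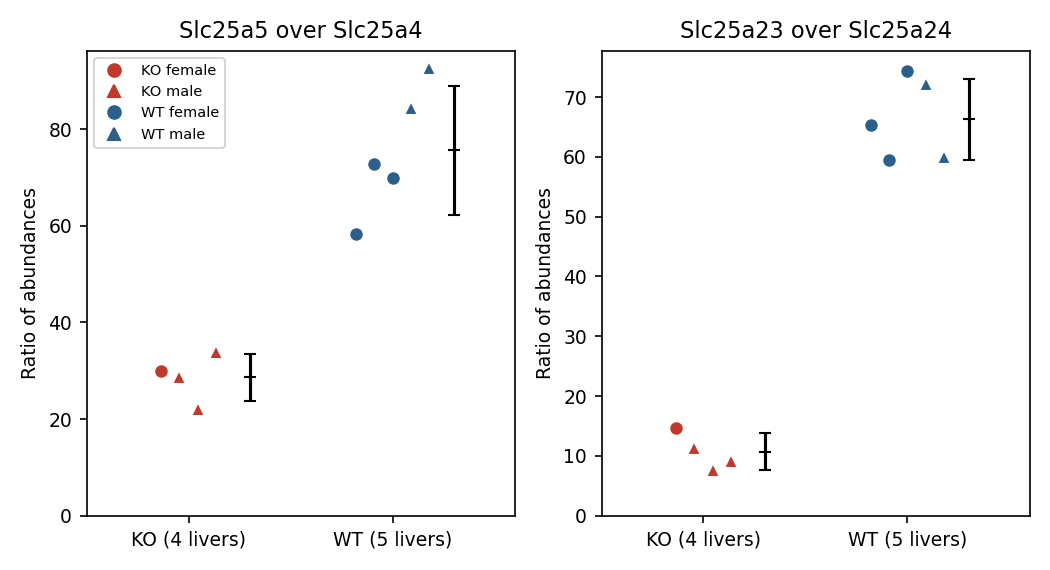
Ratio of abundances within each library (vertical axis, starting at 0) for Slc25a5 over Slc25a4 on the left and Slc25a23 over Slc25a24 on the right, each symbol 1 liver and each black bar the mean ± SD. KO livers reach at most 33.8 and 14.7, and WT livers start at 58.4 and 59.5.

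The other tested carriers of that role did not pass the test. Slc25a23 had means of 45.6 ± 3.55 in KO and 56.1 ± 7.68 in WT (log2 difference -0.29, adjusted p 0.0645), while the authors' deposited table has it lower at -0.34 with a q of 0.0275. Slc25a25, the remaining tested ATP-Mg/phosphate carrier, had 46.3 ± 20.4 and 42.1 ± 9.89. The phosphate carrier Slc25a3, which feeds ATP synthase, stood at 107, 103, 98.0 and 111 in KO and at 116, 113, 104, 155 and 144 in WT (adjusted p 0.143). It was called lower with sex as a covariate (log2 difference -0.34, adjusted p 0.042), in males alone (-0.52, 0.026) and under trimmed-mean scaling (-0.35, 0.0494), against -0.25 in the comparison of all livers by genotype alone. Slc25a31, the testis ADP/ATP translocase, and Slc25a41 were under the filter, and Slc25a41 was listed at 0 in every WT liver.

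Among the uncoupling protein relatives, Slc25a30 was higher in KO and Slc25a14 was not called. Slc25a30 stood at 10.5, 21.5, 53.7 and 31.2 in KO and at 9.45, 8.55, 11.7, 11 and 9.89 in WT. The KO female lay within the WT range, and the 3 KO males lay above it. The means of 29.2 ± 18.4 and 10.1 ± 1.26 (SD) differ 2.89-fold (log2 difference 1.23 ± 0.37, limma adjusted p 0.0262). That call was lost with sex as a covariate (adjusted p 0.0511) and on leaving out KO replicate 3 or 4 or WT replicate 1 or 2, with adjusted p up to 0.0693. Slc25a14 had means of 1.46 ± 0.688 and 1.26 ± 0.375. Slc25a27, the third relative, had 0.614 and 0.505 and was under the filter.

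Of the 4 citrate, dicarboxylate and oxoglutarate carriers, 1 was lower. Slc25a21, which takes up 2-oxoadipate from the breakdown of lysine and tryptophan, stood at 2.37, 2.51, 2.61 and 2.21 in KO and at 4.90, 5.77, 7.05, 6.39 and 5.41 in WT. All KO livers lay under all WT livers. The means of 2.42 ± 0.177 and 5.90 ± 0.838 (SD) are 2.44-fold apart (log2 difference -1.0 ± 0.10, limma adjusted p 8.2e-05). With equal totals the log2 difference was -0.69 (adjusted p 0.00158). The citrate carrier Slc25a1 stood at 47.5, 58.3, 48.0 and 57.6 in KO and at 56.6, 55.6, 52.2, 67.6 and 75.1 in WT and was not called (log2 difference -0.21, adjusted p 0.222), but with sex as a covariate it was lower (-0.31, adjusted p 0.029). The dicarboxylate carrier Slc25a10 and the oxoglutarate carrier Slc25a11 were not called either, with KO means of 54.8 and 35.0 and WT means of 50.8 and 40.4.

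Both aspartate/glutamate carriers, which export aspartate for the malate-aspartate shuttle and the urea cycle, were lower in KO. Slc25a13, the liver isoform known as citrin, stood at 71.9, 81.0, 74.6 and 64.6 in KO and at 106, 117, 108, 123 and 102 in WT. Its groups did not overlap, and the means of 73.0 ± 6.77 and 111 ± 8.5 (SD) are 1.53-fold apart (log2 difference -0.60 ± 0.09, limma adjusted p 0.000692). The isoform of heart and brain, Slc25a12, stood at 2.85, 2.98, 2.75 and 4.02 in KO and at 5.21, 5.98, 4.41, 4.09 and 6.10 in WT. Here too no KO liver reached a WT liver, with means of 3.15 ± 0.585 and 5.16 ± 0.907 (SD), 1.64-fold apart (log2 difference -0.57 ± 0.13, limma adjusted p 0.00886). The transcript listed for Slc25a12 is annotated as a nonsense-mediated decay product, so these values need not describe the mRNA that makes the protein. With equal totals neither call held, at adjusted p 0.251 for Slc25a13 and 0.166 for Slc25a12, and in males alone Slc25a12 was not called at a log2 difference of -0.51 (adjusted p 0.139).

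The other 7 carriers of amino acids were not called or not tested. The mitochondrial ornithine carrier Slc25a15, which the urea cycle needs, stood at 77.1, 155, 97.1 and 127 in KO and at 113, 151, 143, 109 and 132 in WT (adjusted p 0.413). The glutamate carrier Slc25a22 had means of 41.4 ± 19.9 and 48.9 ± 14.0, Slc25a38, which carries glycine, 6.69 ± 0.862 and 6.82 ± 1.48, and the branched-chain amino acid carrier Slc25a44 8.84 ± 3.92 and 13.8 ± 2.58 (adjusted p 0.0694). Slc25a2, Slc25a18 and Slc25a29 were under the filter.

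Slc25a20, which exchanges acylcarnitines for carnitine so that long-chain fatty acids reach the matrix, stood at 39.3, 58.8, 60.3 and 49.1 in KO and at 89.5, 88.9, 80.8, 72.4 and 54.3 in WT. WT replicate 5 lay among the KO livers and the other WT livers lay above them. The means of 51.9 ± 9.75 and 77.2 ± 14.6 (SD) are 1.49-fold apart (log2 difference -0.56 ± 0.17, limma adjusted p 0.0308). The call was lost with sex as a covariate (adjusted p 0.0609), in males alone (0.516, with a log2 difference of -0.16), with equal totals (0.562), with no filter (0.0512), and on leaving out KO replicate 1 or 4 or any female WT replicate, where adjusted p lay between 0.0635 and 0.0796.

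The carriers of cofactors and nucleotides were all tested, with 1 of 9 higher and 2 lower. Slc25a51, the NAD+ carrier, stood at 12.4, 23.0, 21.7 and 24.2 in KO and at 13.0, 6.51, 3.63, 9.05 and 5.76 in WT. KO replicate 1 lay just under WT replicate 1, and the KO males lay above all WT livers. The means of 20.3 ± 5.39 and 7.59 ± 3.59 (SD) differ 2.68-fold (log2 difference 1.37 ± 0.31, limma adjusted p 0.00742). In the authors' deposited table its q was 0.161. The transcript listed for Slc25a51 is not annotated as the gene's principal one, so its values and its 3′ UTR need not stand for the whole gene. The same holds for Slc25a14, Slc25a25, Slc25a36, Slc25a41 and Slc25a44. Those listed for Slc25a43 and Slc25a53 have no annotated coding region.

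Slc25a16, which has been linked to coenzyme A uptake, stood at 18.9, 18.9, 18.5 and 19.1 in KO and at 30.5, 30.3, 30.6, 35.7 and 37.8 in WT. The KO livers were nearly identical to each other and all lay below the WT livers. The means of 18.9 ± 0.253 and 33.0 ± 3.55 (SD) are 1.75-fold apart (log2 difference -0.77 ± 0.08, limma adjusted p 0.000134), and with equal totals the log2 difference was -0.38 (adjusted p 0.0074). Slc25a42, the other carrier of coenzyme A, had means of 12.3 ± 5.72 and 14.5 ± 3.97 and was not called.

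Slc25a32, the folate and FAD carrier, stood at 4.42, 7.93, 6.48 and 5.62 in KO and at 16.3, 11.2, 13.5, 9.65 and 5.82 in WT. WT replicate 5 lay within the KO range. The means of 6.11 ± 1.48 and 11.3 ± 3.96 (SD) are 1.85-fold apart (log2 difference -0.75 ± 0.26, limma adjusted p 0.0453). It lost its call in 11 of 20 alternatives, among them males alone (log2 difference -0.16, adjusted p 0.652) and leaving out any of KO replicates 1, 3 and 4 and WT replicates 1 to 4, where adjusted p reached 0.116. The peroxisomal carrier Slc25a17, the S-adenosylmethionine carrier Slc25a26 and the pyrimidine nucleotide carriers Slc25a33 and Slc25a36 were not called, with log2 differences from 0.00 to 0.14. With equal totals Slc25a17 and Slc25a33 were called higher (0.5 and 0.51, limma adjusted p 0.00272 and 0.0336), as were 45.0% of all tested genes.

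Of the 4 metal and glutathione carriers, 1 was higher. Slc25a28, mitoferrin 2, which brings iron into the matrix, lay between 10.8 and 13.3 in KO and between 7.95 and 10.2 in WT, with no overlap. The means of 11.9 ± 1.22 and 9.16 ± 0.893 (SD) differ 1.30-fold (log2 difference 0.34 ± 0.09, limma adjusted p 0.0176), with an authors' deposited table q of 0.0883. This call too was lost in males alone, where the log2 difference was 0.35 (adjusted p 0.123), under trimmed-mean scaling (0.0619) and without KO replicate 2 (0.0518) or 4 (0.0511). Mitoferrin 1, Slc25a37, was not called at 5.29 ± 0.809 and 5.61 ± 1.28. Slc25a39, which brings in glutathione, stood at 104, 141, 122.3 and 133 in KO and at 104, 121.9, 104, 117 and 119 in WT (log2 difference 0.14, adjusted p 0.324), and was called higher with equal totals (0.53, adjusted p 0.00413). Its relative Slc25a40 had means of 1.34 ± 0.902 and 2.17 ± 0.662 and was not called.

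Slc25a46, an outer membrane protein of the family that acts in mitochondrial shape and dynamics, lay between 15.5 and 16.6 in KO and between 20.2 and 24.2 in WT. The groups did not overlap, and the means of 16.2 ± 0.490 and 22.4 ± 1.74 (SD) are 1.38-fold apart (log2 difference -0.44 ± 0.07, limma adjusted p 0.00146). The call was lost with equal totals (log2 difference -0.06, adjusted p 0.699) and in males alone (-0.38, 0.058).

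The remaining 8 genes are carriers whose substrates are unknown or less settled, and 4 of them were tested. Slc25a34 stood at 4.11, 11.8, 9.43 and 5.40 in KO and at 2.15, 3.68, 3.28, 1.90 and 2.35 in WT. Every KO liver was above every WT liver, by a narrow margin for KO replicate 1. The means of 7.70 ± 3.57 and 2.67 ± 0.765 (SD) differ 2.88-fold (log2 difference 1.17 ± 0.27, limma adjusted p 0.00812). Slc25a47 stood at 183, 494, 233 and 228 in KO and at 605, 605, 505, 450 and 312 in WT. KO replicate 2 lay within the WT range and the other KO livers lay below it. The means of 285 ± 142 and 496 ± 122.3 (SD) are 1.74-fold apart (log2 difference -0.87 ± 0.30, limma adjusted p 0.0446). The call was lost in 11 of 20 alternatives, among them males alone (log2 difference -0.33, adjusted p 0.569), sex as a covariate (0.0805) and leaving out any of KO replicates 1, 3 and 4 and WT replicates 1 to 4, where adjusted p reached 0.116. Slc25a45 and Slc25a48 were not called, with means of 11.4 and 4.22 in KO and 11.8 and 2.48 in WT. With equal totals Slc25a48 was called higher (log2 difference 0.84, limma adjusted p 0.00783), as were 45.0% of all tested genes.

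**Figure D4:**
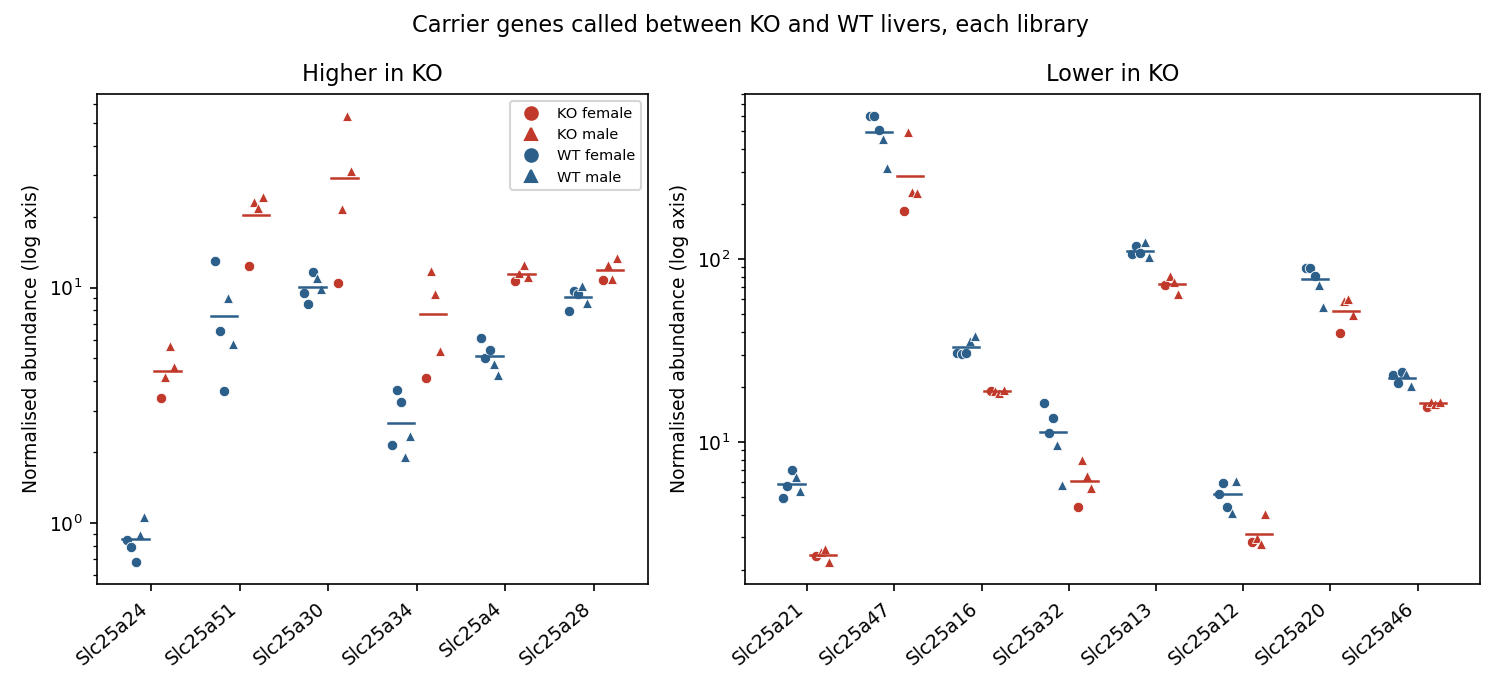
Normalised abundance of the 14 called carriers in each library (vertical axes, log scale). The 6 higher in KO are on the left and the 8 lower on the right, each ordered by log2 difference with the largest change first. Each symbol is 1 liver, circles are females, triangles are males, and lines are group means. The KO and WT symbols of Slc25a24, Slc25a4, Slc25a21 and Slc25a16 are fully apart, while Slc25a47 has 1 KO male at 494 among the WT livers.

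Under the filter lay 10 of the 47 genes, namely Slc25a2, Slc25a18, Slc25a27, Slc25a29, Slc25a31, Slc25a35, Slc25a41, Slc25a43, Slc25a53 and Slc25a54. Slc25a54 was listed at 0 in every library. Slc25a35, the paralog of Slc25a34, stood at 1.5, 1.17, 1.36 and 1.37 in KO and at 0.103, 0.184, 0.235, 0.260 and 0.612 in WT. Its groups did not overlap, and the means of 1.35 ± 0.138 and 0.279 ± 0.196 (SD) differ 4.84-fold. Behind the WT values lay 2.98 to 9.97 reads, and the q in the authors' deposited table was 0.0343. Slc25a2, a carrier of basic amino acids, stood at 0.0702, 0, 0.0491 and 0.0414 in KO and at 0.141, 0.238, 0.157, 0.229 and 0.0833 in WT, also with no overlap. When the filter was dropped, Slc25a35 joined the carriers called higher, making 7, and Slc25a2 was called lower (log2 difference -0.17, adjusted p 0.0232). Slc25a20, Slc25a32 and Slc25a47 lost their calls there, leaving 6 lower. Dropping the filter also changes the set of genes over which p-values are adjusted. The share of all genes called there is not given here, so these counts are a description only.

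A microRNA pairs with its targets mainly through bases 2 to 8, the seed. The annotated 3′ UTRs of the listed transcripts (GENCODE M21, build GRCm38) were searched on the transcript strand for matches to the miR-122 seed. These are ACACTCCA (8mer), ACACTCC (7mer-m8), CACTCCA (7mer-A1) and the core CACTCC that all of them contain (6mer), and a UTR was counted by its longest match. Of 45 carriers with a 3′ UTR of at least 50 bases, 3 held an 8mer, 1 a 7mer-m8, 3 a 7mer-A1 and 11 a 6mer, and 27 held none. An 8mer or 7mer was present in 15.6% of carriers and in 13.1% of all 17830 listed transcripts with such a UTR, and an 8mer in 6.67% and 2.82%. The longest match of each of the 7 carriers with an 8mer or 7mer is shown so that the matches can be read beside the values, with the match in capitals and 11 bases on each side where the UTR allows, written 5′ to 3′ on the transcript strand:

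Slc25a34 8mer: aacactcctgaACACTCCAataaagtttta

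Slc25a51 8mer: gctgtcccactACACTCCAgccttcccagt

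Slc25a28 8mer: tggctgctggcACACTCCAgtctcaagagg

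Slc25a27 7mer-m8: tctgcagattcACACTCCccccccccccc

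Slc25a35 7mer-A1: gttgaatcagtCACTCCAaagtatatttc

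Slc25a12 7mer-A1: tatggacaggtCACTCCActagaaattga

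Slc25a41 7mer-A1: gtctcaaaaagCACTCCAaggctcaggc

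On GRCm38 the 8mers lie at chr4:141618846-141618853 (minus strand) in Slc25a34, chr4:45397935-45397942 (minus strand) in Slc25a51 and chr19:43664044-43664051 (minus strand) in Slc25a28. The 7mers lie at chr17:43642418-43642424 (minus strand) in Slc25a27, chr11:68972344-68972350 (plus strand) in Slc25a35, chr2:71311513-71311519 (minus strand) in Slc25a12 and chr17:57032935-57032941 (minus strand) in Slc25a41. All are within the annotated 3′ UTR. Slc25a34 holds 2 further 7mer-m8 matches in its UTR of 1588 bases. The nearer one, at chr4:141618857-141618863, is within the lower-case bases before the capitals. Slc25a51 holds 1 further 7mer-m8 in a UTR of 3318 bases, and the UTRs of Slc25a28 and Slc25a35 are shorter, at 325 and 393 bases. A match is a run of letters and not a shown binding site.

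All 3 carriers with an 8mer were called higher in KO with limma, with a median log2 difference of 1.17. The authors' deposited q was 0.002 for Slc25a34, 0.0883 for Slc25a28 and 0.161 for Slc25a51. Slc25a28 lost its call in 5 of 20 alternatives, and the UTR searched for Slc25a51 is not that of its principal transcript. Among all tested transcripts with an 8mer, 111 of 247 were called higher (44.9%), with a median of 0.29. Of 10 tested carriers with a 6mer, 1 was higher and 1 lower, with a median of -0.26, below that of all 1187 such transcripts, of which 26.5% were higher with a median of 0.07. Of 23 tested carriers with no match, 2 were higher and 6 lower, with a median of -0.06, and of all 7360 such transcripts 1418 were higher (19.3%), with a median of 0.00. Slc25a24 and Slc25a4, the carriers with the smallest adjusted p among those higher, held no match, and Slc25a30 held a 6mer. The only tested carrier with a 7mer as its longest match, Slc25a12, was lower, against 35.7% higher among all 1040 such transcripts. Its match lies in the annotated UTR of the decay transcript, which takes up 2119 of that transcript's 2392 bases. The match therefore need not lie in a 3′ UTR of the mRNA that makes the protein. Slc25a27, Slc25a35 and Slc25a41 were under the filter.

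**Figure D5:**
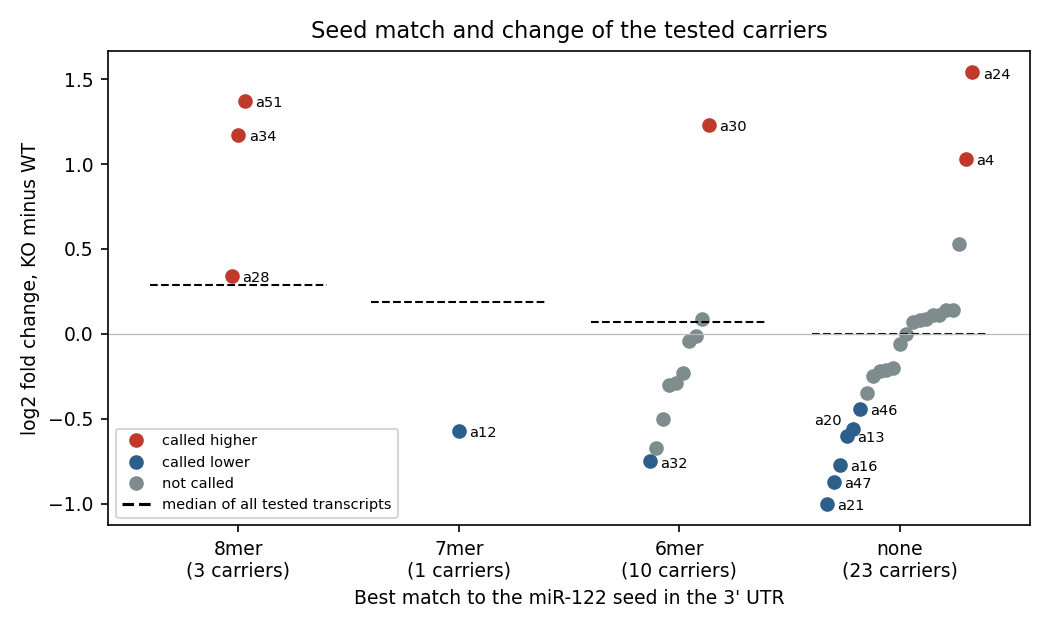
Log2 difference KO minus WT (vertical axis, log2 of value + 1) of the tested carriers by the longest match to the miR-122 seed in their 3′ UTR, each point 1 gene coloured by call, with called genes labelled without the Slc25 prefix. Dashed lines are medians of all tested transcripts in the class (0.29, 0.19, 0.07 and 0.00 from 8mer to none). The 3 points with an 8mer lie above 0, and the highest point of all, Slc25a24, has no match.

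Sex was spread unequally over the genotypes, so the difference between WT males and WT females and the interaction of sex with genotype were fitted in a model with 4 groups. The interaction rests on the 1 KO female. No carrier differed between WT males and WT females at an adjusted p under 0.05 with limma (1.19% of all tested genes did), while 9 of 37 had an unadjusted p under 0.05 (13.8% of all). Slc25a22, the glutamate carrier, was the 1 gene with an interaction (0.119% of all tested genes), at 2.38 ± 0.30 (SE, adjusted p 0.0408). It stood at 15.2 in the KO female and at 63.4, 44.4 and 42.6 in the KO males, against 58.4, 64.7 and 52.2 in the WT females and 37.6 and 31.4 in the WT males. The KO female was thus the lowest of all 9 livers. This call was lost in 13 of 15 alternatives, leaving out WT replicate 3 among them.

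At an unadjusted p under 0.05 the interaction reached 13 of 37 carriers, against 10.7% of all tested genes. For Slc25a30, Slc25a34, Slc25a32, Slc25a20 and Slc25a47 the KO female had the lowest value of the KO group, and their interaction estimates were 1.5, 1.25, 1.26, 0.95 and 1.30, with adjusted p from 0.259 to 0.448. For Slc25a48 the KO female was highest, at 7.01 against 2.95, 3.21 and 3.69 in the KO males (interaction -1.14, adjusted p 0.161). The other carriers that reached it went both ways. Slc25a22, Slc25a42, Slc25a10 and Slc25a15 had interaction estimates of 2.38, 1.38, 0.89 and 0.85. Those of Slc25a23, Slc25a3 and Slc25a17 were -0.49, -0.47 and -0.47. With 1 KO female, her sex and her own value cannot be told apart.

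The family also holds 5 genes under other symbols. Ucp2, an uncoupling protein abundant in macrophages and other immune cells, was 8.63-fold higher in KO, at 50.3 ± 18.1 against 5.83 ± 1.21 (SD, limma adjusted p 2.12e-05). Mtch2, an outer membrane insertase, was 1.59-fold lower, at 55.4 ± 8.28 against 88.3 ± 8.32 (adjusted p 0.00142), but not with equal totals (0.0529). Mtch1 was not called on the deposited scale, and Ucp1 and Ucp3 were under the filter.

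Genes for the import of carriers into the inner membrane were lower in 6 of 12 tested and higher in none with limma, where 14.5% of all tested genes were lower and 21.4% higher. Timm8a1, a small TIM chaperone, was 2.13-fold lower (28.6 ± 3.79 against 60.9 ± 6.0, adjusted p 8.14e-05) and Timm9, which chaperones carriers through the intermembrane space, 2.28-fold lower (8.55 ± 2.50 against 19.5 ± 2.02, adjusted p 0.000683). The receptors Tomm70a and Tomm20 were 1.41-fold and 1.26-fold lower. The list's median log2 difference was -0.21, against 0.03 for all genes, and with equal totals 2 were lower and 3 higher (2.72% and 45.0% of all genes), with a median of 0.17 against 0.36. The summed import list lay between 314 and 358 in KO and between 423 and 457 in WT.

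Other transport proteins of mitochondria were higher in 2 and lower in 6 of 16 tested (median -0.19), beside the same 21.4% higher and 14.5% lower of all genes. Micu2, which gates the calcium uniporter, was 1.90-fold higher (adjusted p 3.96e-05), and the sideroflexin Sfxn2 and the transporter Abcb6 were 1.67-fold and 1.31-fold lower (adjusted p 0.000863 and 0.00153). With equal totals 5 were higher and none lower with limma (45.0% and 2.72% of all genes).

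The enzymes that work beside the carriers were counted the same way, against the same shares of all genes. Of 6 in the malate-aspartate shuttle, which Slc25a13 serves, and the glycerol phosphate shuttle, 4 were lower and 1 higher, with a median of -0.51. Got2, Mdh1, Gpd2 and Got1 were lower, by 1.32-fold, 1.55-fold, 1.80-fold and 2.07-fold, and with equal totals none of the 6 was lower. Around citrate export, Cs (citrate synthase) was 1.67-fold higher, Acly, which splits the exported citrate, was 2.58-fold lower (11 ± 2.91 against 28.3 ± 5.81, adjusted p 0.000697), and Me1 was not called. Of 6 in the urea cycle list, Otc, Arg1 and Asl were lower, by 1.64-fold, 2.05-fold and 2.76-fold, also with equal totals, and none was higher on the deposited scale. Ass1 had an adjusted p of 0.0869. Of 4 carnitine system genes, limma adjusted p lay between 0.0619 for Cpt2 and 0.831 for Crat.

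Markers of cell types were counted the same way, where 21.4% of all tested genes were higher and 14.5% lower. All 5 tested cholangiocyte markers of 6 listed were higher in KO, but 4 of the 5 have WT means under 1 and passed the filter only through KO, so their count says little. The summed level of the list, between 566 and 941 in KO and between 33.3 and 60.4 in WT, is mostly Spp1, at 710 ± 188 and 40.6 ± 10.4 (SD). Among the others, Epcam was highest in KO, at 8.76 ± 1.03 against 0.885 ± 0.260 in WT. Of 6 stellate cell markers 5 were higher (253 to 306 against 109 to 204), and of 6 macrophage markers all 6 were (188 to 253 against 120 to 171). Of 5 endothelial markers 1 was higher and 1 lower (20.7 to 26.5 against 22.5 to 29.6). The lymphocyte list had 1 tested gene, Ptprc, which was higher (5.55 ± 1.86 against 1.62 ± 1.17, SD). Its other genes were under the filter, so the list says little about lymphocytes (6.45 to 10.8 against 2.4 to 5.99 for all 5). Of 5 tested erythroid markers 3 were higher (1614 to 3023 against 1140 to 1856 for all 6). Hepatocyte markers were higher in 1 and lower in 1 of 8 (49213 to 67031 against 44679 to 109610). None of the 4 brown fat and muscle markers passed the filter, and Myh4 was listed at 0 in every KO liver. No other marker was at 0 in a whole group. The part of these markers in the carriers higher in KO, Slc25a24 and Slc25a4 included, was not tested, and in whole liver fewer cells of a type and less RNA per cell cannot be told apart.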

How the data were processed

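PolyA RNA of 9 livers was sequenced (4 KO, 5 WT). The submitters' processing notes name kallisto, sleuth and mm10. Versions, transcript set, strand and the choice of 1 transcript per gene were not given in the sources used here. Per-library values deposited by the authors are treated as a normalised signal, that is, abundance per transcript length over a library's size factor. The authors deposited p-values and q-values for the same comparison. Their coefficient is deposited in natural log units as WT minus KO, and was turned to KO minus WT in log2 here.

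The test the design foresaw for normalised values was applied. The 10950 genes whose mean over all 9 libraries reached 1 entered limma 3.58.1 (R 4.3.3) as log2(value + 1). Genotype was its 1 term, the prior variance followed a trend, and p-values were Benjamini-Hochberg adjusted over all these genes, with a threshold of 0.05. Sex was tested in a fit with 4 groups, 1 of which is 1 liver. The step was tested on simulated data.

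Between 54.5% and 66.1% of low values were whole reads within 0.1, too few for a count test. Labels gave each liver's genotype. The members, roles and lists were chosen with earlier results of these data known. Values per library are given for carriers called with a ratio of means of at least 1.5 and for the 8 with the highest WT mean, and up to 4 genes per other list are named by adjusted p. Slc25a2, Slc25a35, Slc25a22 and Slc25a48, given per library beyond this rule, were chosen after their values were seen, as were the ratios between paralogs. Some genes are not reported here. Reads per gene cover counting error only. Alternatives were other pseudocounts, filters and scalings, sex as a covariate, males alone, a replicate block, no trend, the deposited q-values and leaving out each library.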

Additional observations from a re-analysis of the deposited data

Results flagged for a closer look

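Slc25a47 in KO replicate 2 stood far from the other KO livers, at 494 against 233 for the next and 183 for the lowest. Of 74 groups of livers checked over the 37 tested carriers this was the 1 with such a gap, and chance alone gives about 5% of groups.

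The genotype difference of Slc25a22 differed between the sexes by 2.38 on the log2 scale (limma adjusted p 0.0408). For Slc25a10, Slc25a17 and Slc25a22 the KO livers of each sex lay on opposite sides of the WT livers of that sex. The difference between male and female log2 differences was 0.89 for Slc25a10 (adjusted p 0.459) and -0.47 for Slc25a17 (adjusted p 0.429), so neither passed the test. All of these rest on 1 KO female.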

How the results depend on the processing

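Carriers called higher numbered 6, and 11 with equal totals. Leaving out each library gave 4 to 6. Carriers called lower numbered 8, against 2 with equal totals, 13 with trimmed-mean scaling and 5 in males alone. Leaving out each library gave 5 to 9, with 5 without WT replicate 1 and 5 without WT replicate 3. Shares of all genes stand above only for the comparison by genotype alone, equal totals and the deposited q-values. Other counts of carriers in this section lack such a share and are a description only. The carrier with a sex by genotype difference, 1 in all, became 0 with pseudocounts of 0.1 and 0.5, a mean of at least 5, equal totals, trimmed-mean scaling and no trend, and lay between 0 and 1 on leaving out each library, with 0 without any of KO replicates 3 and 4 and all 5 WT replicates in turn. Without KO replicate 1, the 1 KO female, that fit could not be made. The count between WT sexes was 0 in each alternative run. The cause of these shifts was not tested.

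Over 19 named carriers, 322 values stayed on their side of the threshold, 47 lost the call with the same sign and 7 gained one with the same sign. Of the 322, 317 kept their sign. The other 5 belong to carriers that were not called: with equal totals Slc25a1, Slc25a15, Slc25a3 and Slc25a5 went from log2 differences of -0.21, -0.22, -0.25 and -0.23 to 0.19, 0.18, 0.15 and 0.17, and in males alone Slc25a15 went to 0.05. Slc25a24, Slc25a4, Slc25a34, Slc25a21 and Slc25a16 kept their calls in every alternative in which they were tested. With a filter at a mean of at least 5, Slc25a24, Slc25a34 and Slc25a21 were not tested.

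Whether the replicate numbers or litters pair the livers was not settled. Deviations of same-numbered livers correlated at 0.229, 0.0823, -0.184 and 0.113, and those of other pairs at -0.273 to 0.228. So few correlations cannot exclude pairing. With a replicate block over numbers 1 to 4, 6 carriers were higher and 8 lower. Trimmed-mean scaling was computed directly on the values, chosen after seeing the data, in place of the planned tool, which takes counts and was not run. The alternatives for the sex comparisons were also chosen after seeing the data. Depth limits Slc25a35, with under 10 reads per WT library.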
